A study of Rattus norvegicus with 6 samples.

Results

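Cytochrome P450 enzymes and the enzymes that conjugate their products were measured in the RNA of endothelial cells isolated from the livers of cirrhotic and control Wistar rats. The genes were chosen by symbol alone: the Cyp1, Cyp2, Cyp3 and Cyp4 families, the cytosolic glutathione transferases (Gst), the UDP-glucuronosyltransferases Ugt1 and Ugt2, and the sulfotransferases (Sult). On the Affymetrix rat 230A array, 80 probe sets of 75 genes met this rule, out of 15866 probe sets, of which 12783 carried exactly 1 gene symbol. The 3 cirrhotic arrays came from adult male rats that had been through a protocol to induce cirrhosis, and the 3 control arrays from rats without cirrhosis. All cells were obtained by collagenase perfusion, density centrifugation and capture on magnetic beads coated with antibody. The labels give neither the inducing agent nor the antibody's target, and for control rats no sex. They also leave unsaid whether an array holds 1 rat or a pool, so p-values cover only the spread among arrays, which may be technical. The probe sets of the Ugt1 family carried several symbols and are therefore not among the members.

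P450 enzymes insert oxygen into drugs, steroids, fatty acids and other lipids, with electrons passed on by the reductase Por. Conjugating enzymes then attach glutathione, glucuronic acid or sulfate, which makes the products soluble enough to be excreted. Most of these enzymes are known as products of the hepatocyte, while a few, such as Cyp1b1, Cyp4b1 and Gstp1, are known chiefly from other cells. In the rat, the pattern of growth hormone secretion sets different liver P450s in males and females, with Cyp2c11 the main male and Cyp2c12 the main female enzyme.

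The arrays were scaled alike, with trimmed mean signals between 399.2 and 399.6, and the highest of 27 bacterial control probe sets, which should find no target, read between 21.7 and 49.9. The cells carried the endothelial label in both groups, but 12 of 13 tested endothelial markers were lower in cirrhotic, with summed signals of 24361 to 26511 on cirrhotic and 47935 to 52370 on control arrays. Hepatocyte markers were bright in both groups. Their summed signal over 30 genes was 93387, 70858 and 145284 on cirrhotic arrays 1 to 3, and 86184, 65665 and 58590 on control arrays 1 to 3. Of these 30 genes 10 were higher and none lower in cirrhotic, with a median log2 difference of 0.50. No endothelial or hepatocyte marker was at 0. Cirrhotic array 3 stood apart: among the cirrhotic arrays it gave the top signal for all 30 hepatocyte markers, and for none of 12 cholangiocyte or 12 macrophage markers. No marker list holds any of the enzymes described here. Values without this array are given for every member whose call changed when it was left out, and the size of the other shifts is counted with the unevenness between arrays. In RNA pooled from many cells, fewer cells of a type and less RNA per cell cannot be told apart.

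Of the 80 probe sets, 54 were bright enough to be tested, and 14 of these differed between the groups in limma's moderated test (adjusted p under 0.05 over 9519 probe sets). Of these, 10 were higher and 4 lower in cirrhotic. The share that differed, 25.9%, was close to the 25.4% of all tested probe sets that differed. By direction, 18.5% of the enzyme probe sets were higher, against 12.3% of all tested, and 7.41% were lower, against 13.2%. Their median log2 difference was 0.19, beside -0.02 over all tested probe sets. Without cirrhotic array 3 the counts were 10 higher and 9 lower. Of the 7 tested Cyp4 probe sets 4 were higher and 1 lower, of the 16 tested Cyp2 probe sets 1 was higher and 2 were lower, and none of the 3 tested Cyp3 probe sets passed in limma's test (0 also at an unadjusted p under 0.05). Among conjugating enzymes, 2 of 15 Gst probe sets were higher and 1 lower, 1 of 3 Ugt2 probe sets was higher, and 1 of 8 Sult probe sets was higher.

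**Figure D1:**
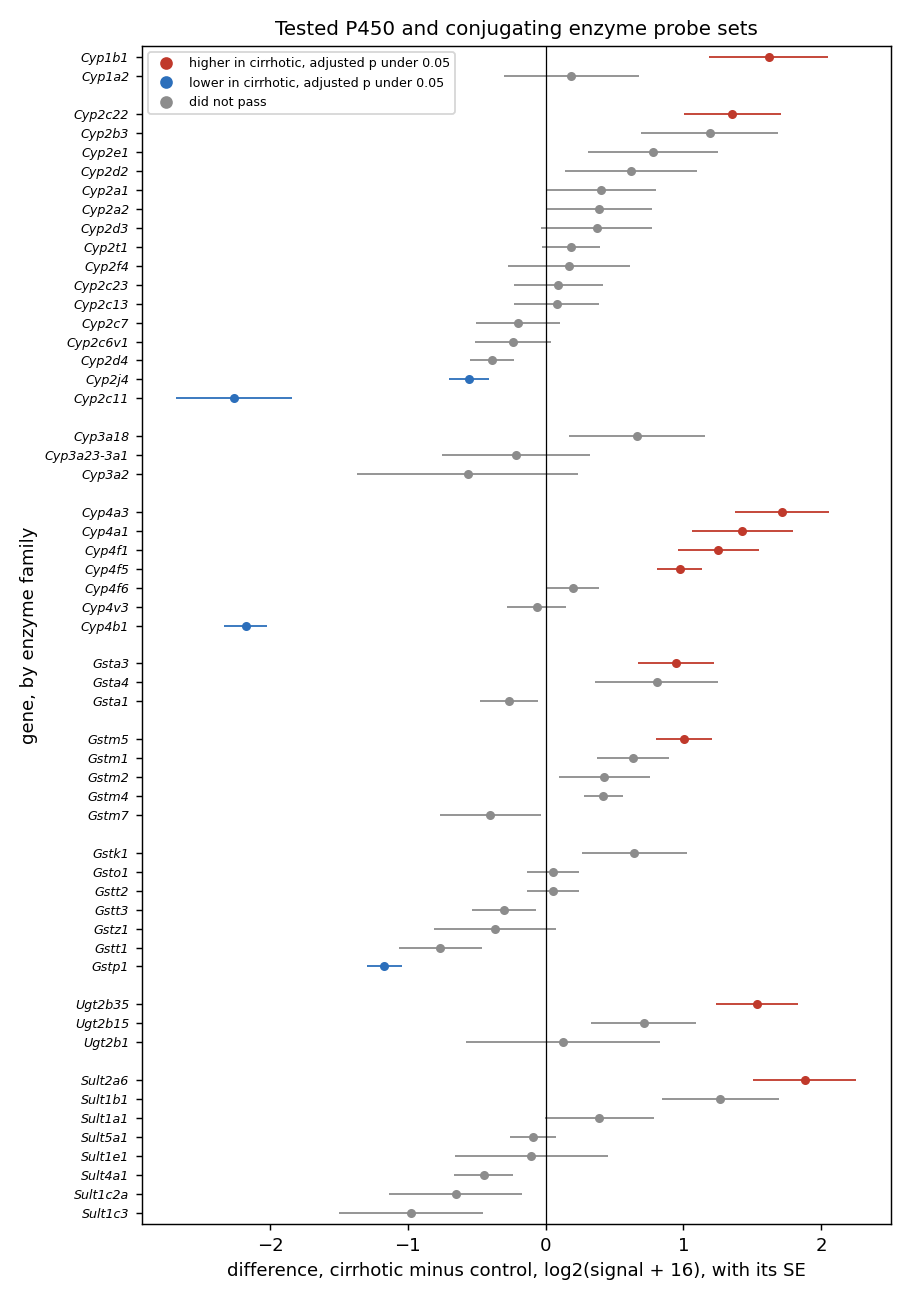
Difference between cirrhotic and control arrays for the 54 tested probe sets, by enzyme family, on the log2(signal + 16) scale. Points are fitted differences and bars their standard errors (3 arrays per group). The 10 probe sets in red were higher and the 4 in blue lower in cirrhotic, with Cyp2c11 and Cyp4b1 farthest to the left and Sult2a6 and Cyp4a3 farthest to the right.

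Cyp4b1 and Gstp1 were among the brightest enzyme genes of control cells and fell in cirrhotic. Cyp4b1 is a P450 known mainly from lung, where it activates aromatic amines and furans. It read 857, 1185 and 1209 on cirrhotic arrays 1 to 3, and 4905, 4554 and 5257 on control arrays 1 to 3. The groups lay far apart, and the arrays of each group close together. On the log2 scale the difference was -2.18 (SE 0.15), with 3 arrays in each group, or a 4.52-fold lower signal (limma adjusted p = 0.000439), and it lay between -2.26 and -2.02 when any 1 array was left out. Gstp1, the pi-class glutathione transferase, is scarce in normal rat hepatocytes and known as a marker of altered hepatocyte foci in rat liver. It read 2687, 2939 and 2163 on the cirrhotic arrays, and 5591, 5707 and 6162 on the control arrays. All cirrhotic signals were at about the same level, and every control signal was above them. Its difference was -1.17 (SE 0.13, adjusted p = 0.00101), with values between -1.26 and -1.04 when 1 array was left out. On cirrhotic array 3, Cyp4b1 lay 0.26 above and Gstp1 0.37 below the mean of the other cirrhotic arrays on the log2 scale. The hepatocyte markers lay a median of 0.98 above, from 0.08 (Pck1) to 2.60 (Apoa2). Cyp4b1 was thus near the lower end of their range and Gstp1 outside it. The endothelial markers fell in the same arrays, with a median log2 difference of -1.03 over 13 genes, and their part in these results was not tested.

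Cyp2c11 and Cyp2c12, both on rat chromosome 1, differed in opposite directions. Their promoters are shown with that of Gstp1, since among the members these genes had the largest fall, the largest positive difference without the filter on dim probe sets, and the smallest adjusted p of a conjugating enzyme. Each sequence runs 5′ to 3′ from 250 bases before to 50 bases after the gene start in RefSeq's GRCr8 table. Capitals mark the TATA box letters TATAAA and the C/EBP letters TTGCNNAA in the first 2 sequences and the AP-1 letters TGANTCA in the third, sought on both strands.
Cyp2c11 (chr1:246174966-246175265, plus strand): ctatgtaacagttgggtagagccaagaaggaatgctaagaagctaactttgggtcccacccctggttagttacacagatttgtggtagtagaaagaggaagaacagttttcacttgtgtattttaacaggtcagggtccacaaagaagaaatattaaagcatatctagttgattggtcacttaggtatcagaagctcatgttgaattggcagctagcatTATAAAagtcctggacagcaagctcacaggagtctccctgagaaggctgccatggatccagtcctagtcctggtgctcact
Cyp2c12 (chr1:248676985-248677284, minus strand): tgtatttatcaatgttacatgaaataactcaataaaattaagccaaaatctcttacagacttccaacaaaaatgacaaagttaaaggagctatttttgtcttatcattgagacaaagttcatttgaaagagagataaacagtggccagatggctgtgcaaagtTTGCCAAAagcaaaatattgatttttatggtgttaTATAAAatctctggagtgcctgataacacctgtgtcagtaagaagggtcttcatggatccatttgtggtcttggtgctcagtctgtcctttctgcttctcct
Gstp1 (chr1:210769656-210769955, minus strand): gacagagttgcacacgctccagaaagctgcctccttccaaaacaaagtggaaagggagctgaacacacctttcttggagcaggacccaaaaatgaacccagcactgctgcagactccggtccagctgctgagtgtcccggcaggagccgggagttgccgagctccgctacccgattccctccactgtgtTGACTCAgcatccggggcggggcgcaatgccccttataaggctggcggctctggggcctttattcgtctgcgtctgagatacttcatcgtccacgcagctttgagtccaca

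The match TATAAA began 31 bases before the start of Cyp2c11 and 52 bases before that of Cyp2c12. Of this pair only the Cyp2c12 window held the C/EBP letters, 87 bases before the start. The start given for Cyp2c12 lies inside the gene's annotated span, so its window may not be the promoter in use. It falls on the letters atggatcc, which in the Cyp2c11 window stand further on, past the start. The distances of the TATAAA matches in this pair are therefore counted from unlike points. The Gstp1 window held TGACTCA 61 bases before the start. Promoters were found for 63 of the 75 genes. The C/EBP letters were present in 23 of these, or 36.5%, against 10.5% of 27457 rat promoters of the same length, and TATAAA in 20, or 31.7%, against 14.3%. TGANTCA was present in 6, or 9.52%, against 7.33%, the STAT5 letters TTCNNNGAA in 8, or 12.7%, against 8.68%, and the xenobiotic response letters TNGCGTG in Cyp1b1 alone, against 5.12% of all. Many members lie in clusters of similar genes, so their promoters are not independent of each other. A match of letters is a description and shows no binding.

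Cyp2c11 read 528, 436 and 1586 on cirrhotic arrays 1 to 3, and 3915, 3285 and 3324 on control arrays 1 to 3. The groups did not overlap and cirrhotic array 3 lay nearest to the controls. The difference was -2.26 (SE 0.42, adjusted p = 0.00758), and -2.82 without cirrhotic array 3. Cyp2c12 read 336, 374 and 386 on the cirrhotic arrays, and 18.5, 10.9 and 24.4 on the control arrays. It was present at about the same level on all cirrhotic arrays, and lay within the bacterial controls on all control arrays. Because its mean log2 signal over both groups was low, it was left out of the main test, and without the filter on dim probe sets its difference was 3.51 (SE 0.21, adjusted p = 0.000715). In that fit 15.5% of 15866 probe sets differed, 8.06% of them higher and 7.42% lower in cirrhotic. Set against the bacterial controls, the Cyp2c12 signal was at least 6.67-fold higher in cirrhotic. On cirrhotic array 3 it lay 0.12 above the mean of the other cirrhotic arrays. Hepatocyte markers lay a median of 0.98 above, from 0.08 (Pck1) to 2.60 (Apoa2). Cyp2c12 was thus near the lower end of their range but inside it, and the part of hepatocyte RNA in its difference was not tested.

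Genes known as higher in male or in female rat liver did not all follow this pair. Of 6 tested male-higher genes 3 fell and 3 did not pass, beside 13.2% of all tested probe sets that were lower in cirrhotic. This short list was chosen with earlier results of these data known. Besides Cyp2c11 the falls were those of Obp3, an odorant-binding protein of male liver, and the major urinary protein gene Mup5. Obp3 read 26.0, 20.8 and 16.9 on the cirrhotic arrays, within the bacterial controls, and 3009, 2807 and 1069 on the control arrays, which makes it at least 42.0-fold lower in cirrhotic (adjusted p = 0.000355). Mup5 read 70.7, 47.8 and 99.0 on the cirrhotic and 471, 372.5 and 291 on the control arrays (difference -2.17, SE 0.26, adjusted p = 0.00137). Both groups were well separated for these genes, on probe sets that may also find related transcripts. Cyp2c13, a male steroid hydroxylase, read 2394, 1914 and 4007 on the cirrhotic and 3450, 2492 and 1801 on the control arrays (difference 0.08, SE 0.31, adjusted p = 0.872). Its groups overlapped, and the same held for Cyp2a2 (0.39, SE 0.38, adjusted p = 0.491). Cyp3a2, the male steroid 6-beta-hydroxylase, read 1694, 276 and 3345 on the cirrhotic and 2686, 1829 and 1075 on the control arrays. Its cirrhotic arrays differed more from each other than the groups did (-0.57, SE 0.80, adjusted p = 0.641), and without cirrhotic array 2 the difference turned to 0.45.

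Of the 6 female-higher genes only Cyp2c7 and Cyp2a1 were bright enough for the main test, and neither passed it (0 also at an unadjusted p under 0.05). Cyp2c7, which hydroxylates retinoic acid and testosterone, read 1318, 1212 and 1759 on the cirrhotic and 2328, 983 and 1870 on the control arrays (-0.20, SE 0.31, adjusted p = 0.666). Cyp2a1, a testosterone 7-alpha-hydroxylase, read 164, 115 and 374 on the cirrhotic and 156, 186 and 98.1 on the control arrays (0.40, SE 0.40, adjusted p = 0.495). Both overlapped between the groups. Among the dim genes the sulfotransferase Sult2a1 stayed at or under 15.0 and the plasma protein gene A1bg at or under 30.2, both within the bacterial controls. The prolactin receptor gene Prlr averaged 101 ± 31.3 in cirrhotic and 94.0 ± 13.3 in control (SD, n = 3 each). Apart from Cyp2c12 none of these 6 genes passed the fit without the filter.

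**Figure D2:**
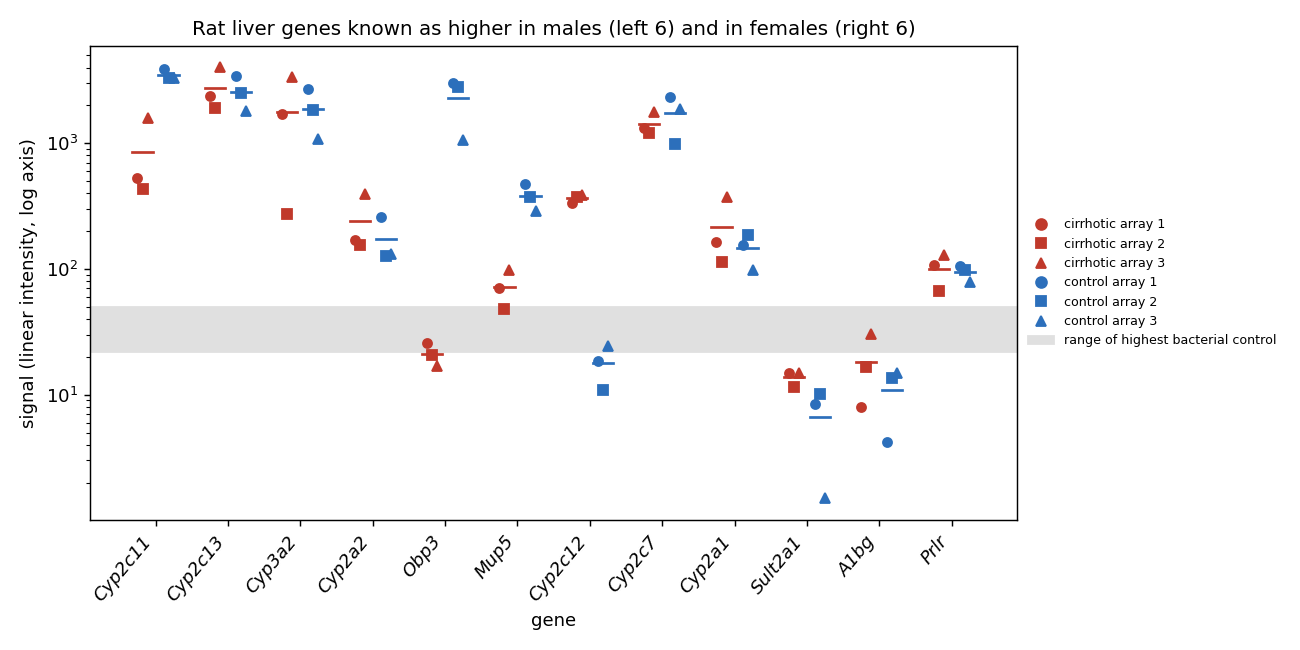
Signal on each array (log axis) of 6 genes known as higher in male rat liver, from Cyp2c11 to Mup5, and 6 known as higher in female rat liver, from Cyp2c12 to Prlr. Cirrhotic arrays are red and control arrays blue, symbols give the array number, bars the group means (n = 3 each), and the grey band spans the highest bacterial control of each array, 21.7 to 49.9. Cyp2c11, Obp3 and Mup5 are lower and Cyp2c12 is higher in cirrhotic, while the other genes overlap between groups or lie within or under the band.

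The remaining Cyp2 genes were mostly bright and mostly uneven between arrays. Cyp2c22, known in the rat to hydroxylate retinoic acid, read 3035, 2211 and 6298 on the cirrhotic and 1704, 1189 and 1227 on the control arrays. Every cirrhotic signal was above the controls, and the difference was 1.35 (SE 0.35, adjusted p = 0.0267). The call ended without cirrhotic array 1 (adjusted p = 0.0655) or without control array 2 or 3 (0.0845 and 0.0934), and the difference was 0.93 without cirrhotic array 3 (0.0158). Cyp2j4, an epoxygenase of arachidonic acid, read 220, 174 and 209 on the cirrhotic and 290, 329 and 289 on the control arrays. Its fall of 0.56 was small (SE 0.14, adjusted p = 0.0260), though both groups were tight. It held only without cirrhotic array 3 (adjusted p = 0.0378) and ended without cirrhotic arrays 1 and 2 (0.0532 and 0.0609) or control arrays 1, 2 and 3 (0.0657, 0.0742 and 0.0668).

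The other 13 tested Cyp2 probe sets did not pass. Cyp2e1, the ethanol-oxidising P450, read 2585, 1822 and 5922 on the cirrhotic and 2578, 2106 and 1002 on the control arrays (0.78, SE 0.47, adjusted p = 0.258, and 0.30 without cirrhotic array 3). Cyp2c6v1, the brightest Cyp2 probe set by its mean, read 2681, 1957 and 4342 on the cirrhotic and 4169, 2946 and 3038 on the control arrays (-0.24, SE 0.28, adjusted p = 0.568, and -0.54 without cirrhotic array 3). In both, the highest cirrhotic signal was on array 3 and the highest control signal on array 1, and the groups overlapped. Cyp2b3, of the Cyp2b subfamily, read 944, 521 and 2024 on the cirrhotic and 703, 420 and 266 on the control arrays (1.19, SE 0.50, adjusted p = 0.115). It passed without cirrhotic array 2 (1.65, adjusted p = 0.0323), and the difference was 0.69 without cirrhotic array 3 (0.241). Cyp2c23, an arachidonic acid epoxygenase, Cyp2d2, Cyp2d3, Cyp2f4 and Cyp2t1 had differences of 0.09, 0.62, 0.37, 0.17 and 0.19, all with overlapping groups. Without cirrhotic array 3 these were -0.28, 0.055, 0.00056, -0.35 and 0.060. Cyp2d4, a P450 known from rat brain, had lower mean signals in cirrhotic on both of its probe sets. The tested one read 241, 263 and 330 on the cirrhotic and 409, 359 and 333 on the control arrays (-0.39, SE 0.16, adjusted p = 0.106), and passed without cirrhotic array 3 (-0.51, adjusted p = 0.0442). The untested one read 86.2, 99.2 and 106 on the cirrhotic and 170, 153 and 147 on the control arrays, with groups that did not overlap.

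Of the Cyp1 family, Cyp1b1 rose. This enzyme is a target of the aryl hydrocarbon receptor found mainly outside hepatocytes. It read 781, 482 and 204 on cirrhotic arrays 1 to 3, and 156, 145 and 93.2 on control arrays 1 to 3. All cirrhotic signals were higher, but they spanned a wide range, with array 3 lowest, opposite to the hepatocyte enzymes. The difference was 1.62 (SE 0.43, adjusted p = 0.0290), and 2.12 without cirrhotic array 3 (0.00176). Without any other array it did not pass, with adjusted p-values of 0.0839 and 0.0626 without cirrhotic arrays 1 and 2, and 0.0572, 0.0659 and 0.105 without control arrays 1, 2 and 3. The stellate cell and myofibroblast markers were higher for 9 of 12 tested genes and the cholangiocyte markers for 8 of 9, with summed signals of 18358 to 30893 and 6421 to 15464 on cirrhotic, and 3691 to 5622 and 1340 to 2286 on control arrays. On cirrhotic array 3, Cyp1b1 lay at -1.52 against the mean of the other cirrhotic arrays on the log2 scale. The median was -0.08 for the stellate cell and myofibroblast markers and -1.84 for the cholangiocyte markers. It was -1.04 for macrophage markers (2 of 12 tested genes higher, 1 lower) and -0.89 for lymphocyte markers (5 of 8 higher). The part of these cell types in the Cyp1b1 result was not tested. Cyp1a2, the hepatocyte member of the family that oxidises caffeine, read 366, 333 and 705 on the cirrhotic and 829, 353 and 193 on the control arrays, with full overlap (0.19, SE 0.49, adjusted p = 0.812). Cyp1a1 was within the bacterial controls on 5 arrays and read 95.9 on cirrhotic array 2.

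In the Cyp3 family, of steroid and drug hydroxylases, no tested probe set passed. Cyp3a23-3a1 read 968, 437 and 2432 on the cirrhotic and 1339, 1406 and 872 on the control arrays (-0.22, SE 0.54, adjusted p = 0.801, and -0.84 without cirrhotic array 3). Cyp3a18 differed by 0.66 (SE 0.49, adjusted p = 0.357), and by 0.11 without cirrhotic array 3. The SEs of this family, up to 0.80, show how far its arrays lay apart. Cyp3a9, known as higher in female than in male rats, was under the filter and read 38.4, 48.9 and 75.8 on the cirrhotic and 234, 149 and 100.2 on the control arrays. Its groups did not overlap, and without the filter the difference was -1.30 (SE 0.33, adjusted p = 0.0371), passing in 2 of the 6 fits that also left out 1 array (0.0293 and 0.0387 without cirrhotic array 3 and control array 3, and 0.0855 to 0.129 in the others).

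The Cyp4 family hydroxylates the ends of fatty acids and of eicosanoids such as leukotriene B4. Cyp4a1 and Cyp4a3, fatty acid hydroxylases known as targets of the receptor PPAR alpha, both rose. Cyp4a3 read 860, 474 and 851 on the cirrhotic and 270, 257 and 118 on the control arrays. The groups did not overlap, and the difference was 1.72 (SE 0.34, adjusted p = 0.00947), passing with any 1 array left out. Cyp4a1 read 373, 193 and 648 on the cirrhotic and 130, 132 and 112 on the control arrays (1.43, SE 0.37, adjusted p = 0.0257). Its control arrays were close together and its cirrhotic arrays were not. It passed without cirrhotic array 2 or 3 (1.85 and 1.02, adjusted p = 0.00291 and 0.0312), but not without cirrhotic array 1 (0.0852) or control arrays 1, 2 and 3 (0.0645, 0.0646 and 0.0886). Cyp4f1 and Cyp4f5, of the leukotriene-hydroxylating subfamily, rose too. Cyp4f1 read 739, 605 and 1163 on the cirrhotic and 429, 361 and 228 on the control arrays (1.25, SE 0.29, adjusted p = 0.0176), and did not pass without cirrhotic array 1 (0.0529) or control array 3 (0.0609). Cyp4f5 read 191, 235 and 243 on the cirrhotic and 98.5, 114 and 103 on the control arrays (0.97, SE 0.16, adjusted p = 0.00512). This call held with any 1 array left out, and the cirrhotic arrays were close to each other. Cyp4f6 (0.20, SE 0.19, adjusted p = 0.477) and the brighter Cyp4v3 probe set (-0.07, SE 0.21, adjusted p = 0.849) did not pass. The Cyp4 genes thus held both the fall of Cyp4b1 and 4 of the 10 rises.

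**Figure D3:**
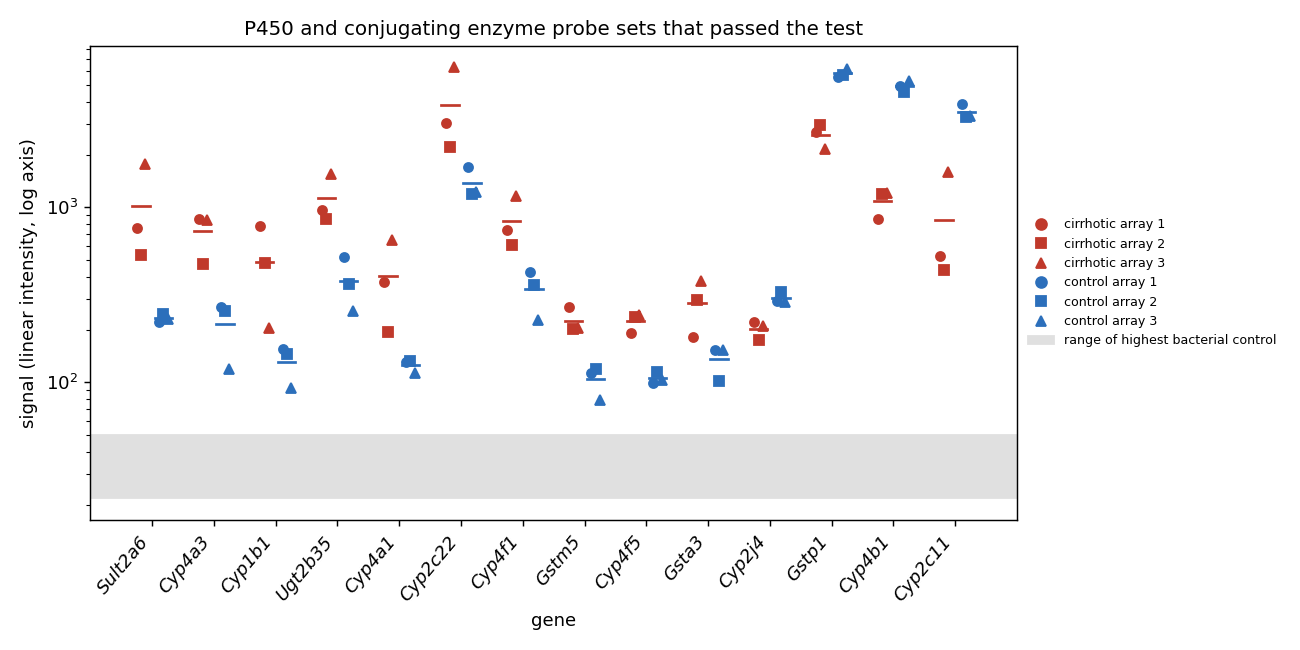
Signal on each array (log axis) of the 14 probe sets that passed the test, ordered by their difference from the largest rise, Sult2a6, to the largest fall, Cyp2c11. Cirrhotic arrays are red and control arrays blue, symbols give the array number, bars the group means (n = 3 each), and the grey band spans the highest bacterial control of each array. All 14 lie above the band, and cirrhotic array 3 is often highest. The groups do not overlap in any of them, which the test that picked them favours. The share without overlap among all tested probe sets was not counted.

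Most glutathione transferases did not pass. Gstm5 and Gsta3, of the mu and alpha classes, rose at low signals. Gstm5 read 269, 201 and 204 on the cirrhotic and 113, 119 and 79.4 on the control arrays (1.01, SE 0.20, adjusted p = 0.0101), and missed the threshold only without cirrhotic array 1 (0.0531). Gsta3 read 182, 294 and 380 on the cirrhotic and 154, 102 and 153 on the control arrays (0.95, SE 0.28, adjusted p = 0.0395). That call was the weakest of the 14: it held without cirrhotic array 1 (0.0219), but not without cirrhotic arrays 2 and 3 (0.0848 and 0.0860) or control arrays 1, 2 and 3 (0.0698, 0.113 and 0.0805). The bright hepatocyte forms overlapped between the groups. Gsta1 read 3234, 3192 and 4948 on the cirrhotic and 4314, 5623 and 3666 on the control arrays (-0.27, SE 0.21, adjusted p = 0.390). Gstm1 read 3339, 2522 and 5507 on the cirrhotic and 2538, 2430 and 1996 on the control arrays (0.63, SE 0.26, adjusted p = 0.112), with 0.89 without cirrhotic array 2 (adjusted p = 0.0269) and 0.33 without cirrhotic array 3 (0.185). Gstm4, also of the mu class, read 612, 620 and 513 on the cirrhotic and 380, 455 and 460 on the control arrays (0.42, SE 0.14, adjusted p = 0.0657), with no overlap, and passed without cirrhotic array 3 (0.0420). Gsta4, known for conjugating the lipid peroxidation product hydroxynonenal, and Gstm2 and Gstm7 had differences of 0.81, 0.43 and -0.40, or of 0.26, 0.023 and -0.75 without cirrhotic array 3, and did not pass.

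Of the theta and zeta classes, Gstt1, Gstt3 and Gstz1 passed when cirrhotic array 3 was left out and Gstt2 did not. Gstt1, which conjugates small halogenated compounds, read 297, 269 and 651 on the cirrhotic and 685, 650 and 609 on the control arrays. On cirrhotic array 3 it lay within the control range, and on cirrhotic arrays 1 and 2 far under it. Its difference was -0.76 (SE 0.30, adjusted p = 0.0990), and -1.15 without array 3 (adjusted p = 0.00143). Gstz1, an enzyme of tyrosine breakdown, read 460, 435 and 1452 on the cirrhotic and 1009, 1022 and 618 on the control arrays, with a difference of -0.37 (SE 0.44, adjusted p = 0.580) and of -0.92 without array 3 (0.0251). Gstt3 read 2375, 1782 and 3603 on the cirrhotic and 3109, 2910 and 3173 on the control arrays, with a difference of -0.30 (adjusted p = 0.366) over all arrays and of -0.57 (0.0261) without array 3. Gstk1 of the mitochondrial kappa class, Gsto1 of the omega class and Gstt2 did not pass, with differences of 0.64, 0.06 and 0.05, and of 0.15, -0.15 and -0.14 without array 3.

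Among the glucuronosyltransferases Ugt2b35 rose. It read 967, 858 and 1554 on the cirrhotic and 523, 364 and 257 on the control arrays (1.53, SE 0.30, adjusted p = 0.00860). The groups did not overlap, and the call held with any 1 array left out. Ugt2b15, which conjugates steroids, differed by 0.71 (SE 0.38, adjusted p = 0.205) and Ugt2b1 by 0.13 (SE 0.70, adjusted p = 0.913), or by 0.43 and -0.75 without cirrhotic array 3. Ugt2b1 read 252, 107 and 1123 on the cirrhotic and 419, 236 and 247 on the control arrays, so that its spread within a group exceeded the difference.

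The gene listed as Ugt2b, whose product conjugates androsterone, was either clearly present or at the floor, in both groups. Its brighter probe set read 1.7, 2.0 and 1622 on cirrhotic arrays 1 to 3, and 766, 188 and 2.5 on control arrays 1 to 3. Cirrhotic arrays 1 and 2 and control array 3 lay far under the bacterial controls, while hepatocyte markers were bright on the same arrays. The dimmer probe set of the gene read 22.3, 2.3 and 55.5 on the cirrhotic and 21.3, 21.1 and 1.1 on the control arrays, within or near the bacterial controls throughout. The brighter probe set was under the filter because of these low values, and did not separate the groups (adjusted p = 0.824 without the filter).

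Of the tested sulfotransferases Sult2a6 alone passed. This gene, of the hydroxysteroid sulfotransferases, which as a family are known as higher in female rats, rose the most of all tested members. It read 757, 534 and 1762 on the cirrhotic and 222, 244 and 229 on the control arrays. The control arrays were close together and every cirrhotic signal was above them. The difference was 1.88 (SE 0.38, adjusted p = 0.00999), and 1.40 without cirrhotic array 3 (0.00175). The related Sult2a2 was dim, at 17.4, 25.6 and 67.6 on the cirrhotic and 8.4, 1.8 and 1.8 on the control arrays. All its control signals and that of cirrhotic array 1 lay within the bacterial controls, so no fold is given and the size of the difference was not measured. Sult1b1, a sulfotransferase of phenols and thyroid hormones, read 1743, 1202 and 3617 on the cirrhotic and 1115, 923 and 508 on the control arrays (1.27, SE 0.42, adjusted p = 0.0612). Its groups did not overlap. It passed without cirrhotic array 2 (1.62, adjusted p = 0.0252) and with array weights, and the difference was 0.83 without cirrhotic array 3 (0.101).

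The other sulfotransferases were not called. Sult1e1, the oestrogen sulfotransferase and the brightest of the family, read 1566, 874 and 4192 on the cirrhotic and 2891, 2162 and 1142 on the control arrays (-0.10, SE 0.55, adjusted p = 0.912, and -0.71 without cirrhotic array 3). Sult1a1, of phenols, differed by 0.39 (SE 0.40, adjusted p = 0.503), and by 0.0031 without cirrhotic array 3. Sult1c3 read 556, 325 and 1610 on the cirrhotic and 1571, 1623 and 914 on the control arrays, with a difference of -0.98 (SE 0.52, adjusted p = 0.203), and of -1.60 without cirrhotic array 3 (0.00895). As with Gstt1, cirrhotic array 3 alone reached the control range. Sult4a1, Sult5a1 and Sult1c2a had differences of -0.45, -0.09 and -0.65 and did not pass.

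The unevenness between arrays of a group was itself shared among the enzymes. Of the 54 tested probe sets, 46 had their highest cirrhotic signal on array 3, against 35.1% of all tested probe sets. The highest control signal was on array 1 for 32 of the 54, against 30.8% of all tested. The median excess of cirrhotic array 3 over the mean of cirrhotic arrays 1 and 2 was 1.02 on the log2 scale, beside 0.98 for the hepatocyte markers, 0.11 for the endothelial markers and -0.02 over all tested probe sets. For control array 1 over control arrays 2 and 3 it was 0.28 for the enzymes, 0.67 for hepatocyte markers and -0.05 for endothelial markers. The excess on cirrhotic array 3 was at least 2-fold for 27 of the 54. It was largest in the Cyp3 family (median 1.87) and smallest for Cyp1b1 (-1.52), Gstp1 (-0.37), Gstm4 (-0.26), Sult5a1 (-0.26), Gstm5 (-0.17), Cyp2j4 (0.09), Sult4a1 (0.11), Cyp4f5 (0.18) and Cyp4b1 (0.26). Without cirrhotic array 3, none of the 14 differences that passed turned in sign or moved by over 1.5 times, though Gsta3 lost its call. The groups did not overlap in any of the 14, so no sign could turn. Of the 40 that did not pass, 9 turned in sign and another 28 moved by over 1.5 times. Small differences turn or move by such a ratio easily, so this contrast follows in part from the test that picked the 14. The part of hepatocyte RNA in the differences of the other enzymes was not tested.

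**Figure D4:**
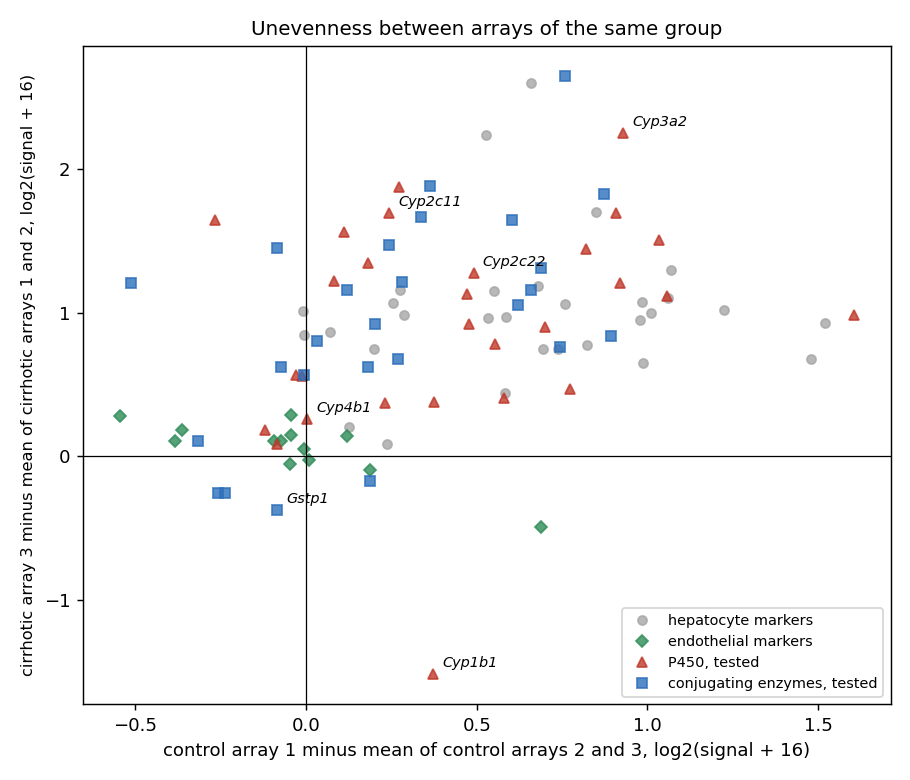
Difference of cirrhotic array 3 from cirrhotic arrays 1 and 2 (vertical axis) against the difference of control array 1 from control arrays 2 and 3 (horizontal axis), both on the log2(signal + 16) scale. Each point is a probe set: tested P450s (red triangles), tested conjugating enzymes (blue squares), hepatocyte markers (grey) and endothelial markers (green). Most enzymes lie with the hepatocyte markers above 0 on the vertical axis, Cyp4b1 (0.26) and Gstp1 (-0.37) are among the enzymes nearer to 0, as are Gstm5, Cyp2j4, Sult4a1 and Cyp4f5, and Cyp1b1 is lowest at -1.52.

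The dim members were left out of the main test. Of the 26 untested probe sets 20 had a mean signal under 100, the highest single reading among these being 318 for Gstm3 on cirrhotic array 3, and 6 had a mean above it. Nearest to a mean of 100 were Cyp3a9 (108), Cyp2j3 (108) and Cyp2s1 (101) above it, and Cyp4f4 (99.0) and a Cyp4a8 probe set (96.8) below it. Cyp2j3 read 84.0, 91.4 and 205 on the cirrhotic and 94.9, 104 and 72.2 on the control arrays, and Cyp2s1 read 133, 96.6 and 102 on the cirrhotic and 108, 91.6 and 75.7 on the control arrays. Both overlapped between the groups. Gstm3 read 66.2, 11.3 and 318 on the cirrhotic and between 10.1 and 17.2 on the control arrays, so that its cirrhotic signals ranged from the level of the controls to far above it. Cyp2g1, an olfactory P450, read between 42.2 and 44.6 on the cirrhotic and between 59.3 and 92.7 on the control arrays. Apart from Cyp4f4 and Cyp4a8, the remaining dim probe sets, among them those of Cyp2a3, Cyp2b12, Cyp2b21, Cyp4f17, Sult1d1, Sult2b1, Sult6b2, Ugt2a1 and Ugt2b7, had no reading above 99.5.

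For the genes that serve these enzymes, the counts that follow stand beside 25.4% of all tested probe sets called, 12.3% higher and 13.2% lower. None of 10 tested genes of cosubstrate synthesis, 8 hepatobiliary transporters or 7 other conjugating enzymes passed in limma's test, and 4, 2 and 1 of them had an unadjusted p under 0.05. Of 14 other phase I enzymes only Xdh, the xanthine dehydrogenase, passed, and fell by 0.78 (SE 0.14, adjusted p = 0.00573). Of 7 tested electron partners and haem synthesis genes Alas1, the rate-limiting enzyme of haem synthesis, fell by 0.90 (SE 0.23, adjusted p = 0.0234). The call was lost without cirrhotic array 1 (0.0881) or control arrays 1, 2 and 3 (0.0540, 0.0741 and 0.0752). The reductase Por read 372, 312 and 307 on the cirrhotic and 484, 394 and 456 on the control arrays (-0.41, adjusted p = 0.0681). Of 9 tested transcription factors of drug metabolism 1 passed, Nfe2l2, which controls many glutathione transferases: it fell by 0.66 (SE 0.14, adjusted p = 0.0127), and did not pass without cirrhotic array 1 or control array 3 (0.0530 and 0.0564). In the growth hormone axis 2 of 5 tested genes rose. Igf1 rose by 1.34 (SE 0.20, adjusted p = 0.00296) and the kinase gene Jak2 by 0.97 (SE 0.22, adjusted p = 0.0173). Jak2 did not pass without cirrhotic array 1 (0.0679) or control arrays 1, 2 and 3 (0.0545, 0.0506 and 0.0557). Of the genes of these lists under the filter, only Onecut1 and Nat2 passed limma's test without it. Both were higher in cirrhotic (1.62 and 0.98, adjusted p = 0.0474 and 0.0129), in a fit where 15.5% of probe sets differed. Nat2 was dim and lay within the bacterial controls on all control arrays and on cirrhotic array 1. Set against these controls, its signal was at least 1.06-fold higher in cirrhotic. Onecut1 passed in 1 and Nat2 in 5 of the 6 fits that also left out 1 array.

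Of 7 tested P450 genes outside the chosen families 3 fell and 1 rose. Cyp26a1 and Cyp26b1, which break down retinoic acid, fell by 2.78 (SE 0.29, adjusted p = 0.000823) and 1.98 (SE 0.51, adjusted p = 0.0267). The Cyp26b1 call ended without cirrhotic array 1 (0.0783) or control arrays 1 or 2 (0.0756 and 0.0649). Cyp27a1, a sterol hydroxylase of bile acid synthesis, read 723, 1165 and 1429 on the cirrhotic and 2440, 2229 and 2494 on the control arrays, and fell by 1.15 (SE 0.23, adjusted p = 0.0101). Ptgis, the prostacyclin synthase, rose by 2.01 (SE 0.43, adjusted p = 0.0124), and missed the threshold without cirrhotic array 1 or control array 3 (0.0542 and 0.0503). Cyp7a1, the rate-limiting enzyme of bile acid synthesis, differed by 0.77 and did not pass (adjusted p = 0.207).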

How the data were processed

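Liver endothelial cell RNA was hybridised to 6 arrays, 3 cirrhotic and 3 control. The authors deposited 1 linear intensity per probe set and array; how probes were summarised is not stated. After trimming 2% at either end the mean of each array was about 400, so no further scaling was applied. All 6 value columns were used (0 left aside). One control title has no number, and this array is called control 1.

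Signals entered as log2(signal + 16). Control probe sets (57) were removed, then the 40% dimmest by mean log2 signal (6347 of 15866, a limit near a signal of 127). The remaining 9519 were fitted with limma 3.58.1 in R 4.3.3, using eBayes with trend, and Benjamini-Hochberg adjustment (two-sided, threshold 0.05). Where all arrays of a group lay within their bacterial controls, those controls' highest signals replaced the group's own to bound a fold from below. The number of arrays limits the precision. The fit was tested on simulated data.

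Symbols came from the platform annotation: 312 probe sets had several and 2771 none. Of the 75 genes, 74 were found in RefSeq's GRCr8 gene table. Enzymes of 1 subfamily are close in sequence, so a probe set may also read a relative. Promoters and their positions are those of RefSeq's GRCr8 table. The members and lists were chosen with earlier results of these data known. Named are all members that passed, the brightest of each family, the male and female lists, up to 4 passing genes of every other list (brightest probe set per gene) and members next to a mean of 100. Other members, Por and Cyp7a1 were named after their values were seen. The alternatives varied scaling, pseudocount, filter, variance model, array weights, probe sets of shared sequence, a block for array number, and left out each array.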

Additional observations from a re-analysis of the deposited data

How the results depend on the processing

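Cyp2c11, Cyp4a3, Cyp4b1, Ugt2b35, Sult2a6 and Gstp1 passed in all 17 settings run, and Cyp4f5 in all 16 in which it was tested. With array weights 1818 of all tested probe sets were higher and 1954 lower, against 1167 and 1254. Leaving out 1 array gave 627 (without cirrhotic array 1) to 1256 higher and 694 (without control array 3) to 1216 lower. Median centring split all tested probe sets into 925 higher and 1480 lower. Among the enzymes the main counts of 10 higher and 4 lower became 5 higher with a 60% filter, which left 6 of the called probe sets untested, and 7 lower with array weights. Leaving out 1 array gave 5 (without cirrhotic array 1) to 11 higher (without cirrhotic array 2) and 3 to 9 lower (9 without cirrhotic array 3). Gsta3 was lost with quantile scaling, median centring, array weights and no filter, where Cyp2c12, Cyp3a9 and Sult2a2 were gained. The cause was not tested. Leaving out an array without the filter was chosen after seeing the data.

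The replicate block gave 966 higher and 982 lower over all, and lost Cyp2j4 and Gsta3 among the enzymes. Numbers stand in the titles of both groups for arrays 2 and 3 alone, whose deviations correlated at -0.01 and -0.16. Arrays of unlike number correlated between -0.22 and 0.22, so these values cannot tell whether arrays of the same number were paired.

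With 1 array left out, none of the 14 enzyme probe sets that passed turned in direction. None could, since their groups did not overlap. Of the 40 tested enzyme probe sets that did not pass, 16 turned. Among them Cyp1a2 lay between -0.29 and 0.72, Cyp3a2 between -1.32 and 0.45, Sult1e1 between -0.71 and 0.41, Cyp2c6v1 between -0.54 and 0.030, Cyp2c13 between -0.22 and 0.31, Cyp2a2 between -0.015 and 0.69, Cyp2c7 between -0.56 and 0.057, and Cyp2a1 between -0.047 and 0.74. Array weights gave -0.16 for Cyp1a2 and -0.091 for Cyp2c13. Without the filter the dim Cyp2j3 lay between -0.024 and 0.55, Cyp4a8 between -0.40 and 0.019, Cyp4f4 between -0.074 and 0.45, and Prlr between -0.12 and 0.28. Signals within the bacterial controls have no order.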

Other observations

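Probe sets shared by several enzyme genes were kept out of the counts. Both probe sets that carry 8 Ugt1a symbols rose. The first read 1243, 981 and 1925 on cirrhotic arrays 1 to 3, and 819, 432 and 238 on control arrays 1 to 3 (1.56, SE 0.42, limma adjusted p = 0.0307). It passed in 2 of the 6 fits that left out 1 array, with adjusted p-values up to 0.0839. The second read 794, 821 and 1364 on the cirrhotic and 397, 358 and 281 on the control arrays (1.45, SE 0.23, adjusted p = 0.00422), and passed in all 6 such fits. The groups did not overlap in either, and which of the 8 transcripts they read cannot be told apart. A probe set with 2 symbols of the Cyp2b subfamily, known for its response to phenobarbital, read 534, 372 and 1966 on the cirrhotic and 3318, 1722 and 1502 on the control arrays (-1.46, SE 0.58, adjusted p = 0.100). On cirrhotic array 3 it lay within the control range. The difference was -2.16 without that array, and the probe set passed in 1 of the 6 fits that left out 1 array (adjusted p = 0.00377).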
